A study of Homo sapiens with 12 samples.

Results

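The enzymes that copy, write and remove DNA methylation were followed at the RNA level in U937 cells, through 10 genes chosen by name. DNMT1 and UHRF1 maintain methylation, DNMT3A, DNMT3B and DNMT3L set it de novo, TET1, TET2 and TET3 oxidize it, and TDG and GADD45A act in its removal. Each transcript whose annotated symbol was 1 of these 10 was taken, which gave 91 of the 197782 transcripts in the deposited matrix. Of the 91, 43 had a read in at least 1 library.

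U937 is a human acute myeloid leukemia line of the monocytic lineage. The groups were untreated cells, cells given decitabine (DAC) at 200 nM in daily pulses, cells given all-trans retinoic acid (ATRA) at 1 µM, and cells given both (DAC + ATRA). Each group had 3 libraries. The labels give 96 h for untreated cells and 72 h for the treated ones. The paper instead puts the harvest at 72 h and adds ATRA together with the last pulse of DAC. If the labels hold, treatment and time cannot be told apart in any comparison with untreated cells. The paper dissolved ATRA in DMSO, and no group is labelled as given DMSO alone. The labels and the paper also differ in the serum content of the medium, and the labels add GM-CSF. Because the libraries carry no replicate number in the matrix, each is named by its column there, untreated libraries 1 to 3, DAC libraries 4 to 6, ATRA libraries 7 to 9 and DAC + ATRA libraries 10 to 12. The series design calls the libraries of a group technical triplicates, so the p-values measure only the spread between these samples. The depth was 8042435 to 10683593 counted reads in a library, and its median 9874622. Values are normalized read counts, which the authors made by dividing the reads of each transcript by 1 size factor for its library. In each library, 3 reads equal between 2.50 and 3.71 normalized reads, and this floor covers counting error only.

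In mammalian cells DNA methylation sits mainly on the cytosine of CpG dinucleotides. UHRF1 recognizes the hemimethylated sites that replication leaves behind and brings in DNMT1, which copies the mark to the new strand, while DNMT3A and DNMT3B methylate sites that carried no mark and DNMT3L assists them. TET enzymes oxidize the mark stepwise, TDG cuts out the most oxidized bases so that repair restores plain cytosine, and GADD45A is a stress-induced protein linked to this excision. DAC is built into DNA in place of cytosine and traps the methyltransferases there, and DNMT3A and TET2 are among the genes most often mutated in acute myeloid leukemia.

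The labelled cell type was checked against marker genes. Of 13 myelomonocytic markers, 7 passed the filter on low values, with MPO, the myeloperoxidase of myeloid granules, the most abundant at a mean of 31697 normalized reads. The summed mean of these markers was 52798 in untreated cells, 28720 with DAC, 34569 with ATRA and 19119 in DAC + ATRA. Reads were at 0 for PTPRC and CSF2RA among them, and for CD79B, CD3E, HBB, HBA1, COL3A1 and KRT18, which define other lineages. Bases shared between overlapping transcripts were mostly uncounted, as described below, so reads of 0 do not show that a gene or lineage is absent. Some markers of other lineages moved with treatment. The B cell list, with 1 of 4 markers passing the filter and CD79A the most abundant, summed to 131 in untreated cells, 514 with DAC, 314 with ATRA and 1336 in DAC + ATRA. The T cell list, with 1 of 4 passing and CD2 the most abundant, summed to 5.52, 355, 6.63 and 149 in the same order. The fibroblast list, with 2 of 4 passing and COL1A1 the most abundant, summed to 18.7, 253, 47.7 and 138. The epithelial list, with 1 of 4 passing and KRT8 the most abundant, summed to 0.303, 16.7, 0 and 17.4, and the erythroid list, with 2 of 5 passing and KLF1 the most abundant, ran from 114 in untreated cells down to 72.8 with DAC + ATRA. Their part in the results below was not tested. In bulk RNA, fewer cells of a type and less RNA per cell cannot be told apart.

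The reads of the 10 genes fell unevenly on their transcripts. TET3 received 36719 reads over the 12 libraries, DNMT3A 24644, TDG 12808, DNMT1 4008 and TET1 3213. TET2 received 79, GADD45A 53, UHRF1 51 and DNMT3B 44, and DNMT3L received 0. In this matrix, bases shared between overlapping transcripts were mostly left uncounted. Among transcripts matched to GENCODE 44, 2.03% of the 57478 with no base of their own had at least 10 reads, against 33.5% of the 117166 with such a base. A low count of a gene with many overlapping transcripts is therefore no measure of its expression. DNMT1 had 29 transcripts in the matrix, and 0.773% of its reads lay on protein-coding ones. The remainder lay on DNMT1 models that keep an intron or are otherwise noncoding. GADD45A received its 53 reads on retained-intron models, 33 on GADD45A-204 and 20 on GADD45A-203, and 0 on its coding transcripts. A total of 13 transcripts reached 10 normalized reads in 3 or more libraries and were tested, of which 5 were protein-coding and 8 were not. They belong to 5 genes, DNMT1, DNMT3A, TET1, TET3 and TDG. The other 30 transcripts with reads had at most 80 reads each.

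**Figure D1:**
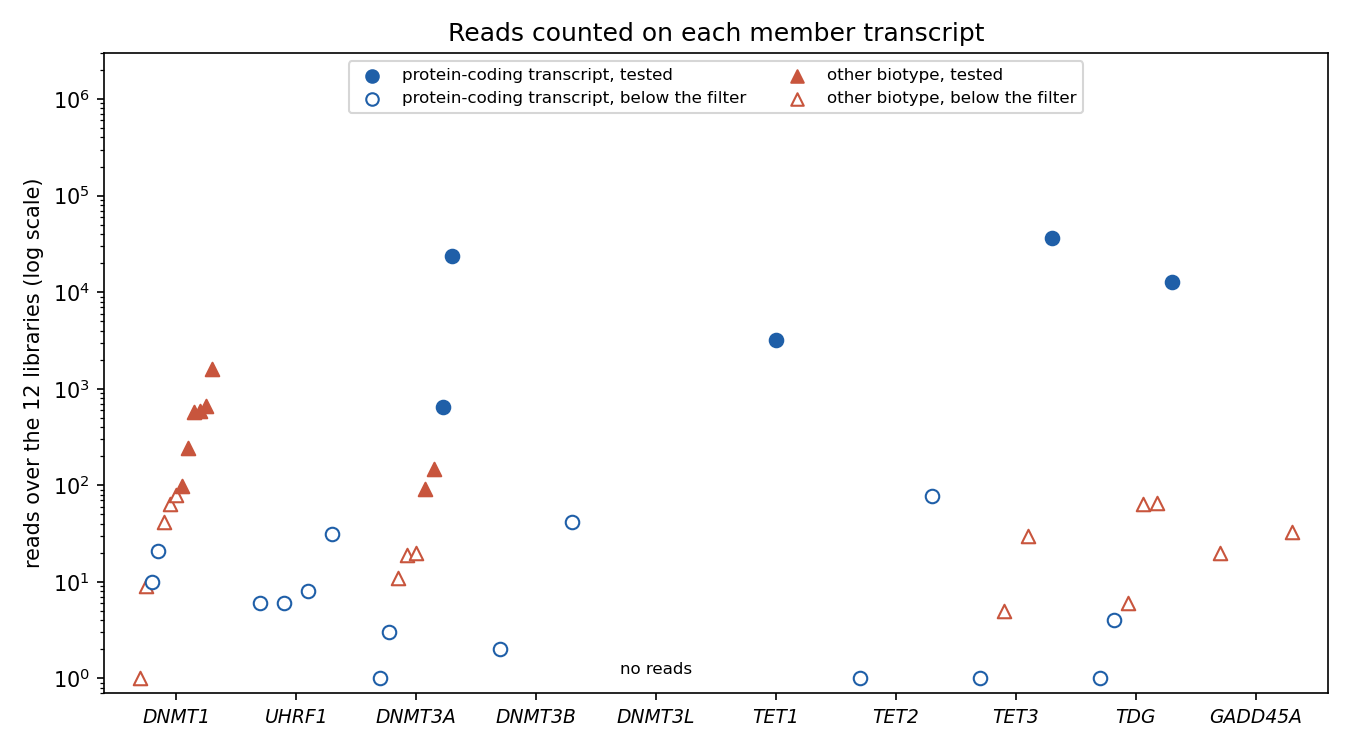
Reads counted over the 12 libraries (log scale) on each transcript of the 10 genes, with circles for protein-coding transcripts, triangles for other biotypes and filled marks for the 13 transcripts tested. DNMT1 is tested through noncoding models only, and UHRF1, DNMT3B, TET2 and GADD45A had transcripts below the filter only.

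Levels of transcripts of different genes were compared per kilobase of the bases that belong to a single transcript, as GENCODE 44 draws them. In untreated cells TDG-202 stood at 568 ± 35.2 normalized reads per kilobase (SD, n = 3) and TET3-202 at 402 ± 19.9. TET1-201 followed at 34.6 ± 0.47, UHRF1-206 at 4.70 ± 4.04 and TET2-202, the transcript of TET2 with the most reads, at 1.67 ± 0.50. The order of TDG, TET3 and TET1 was the same in all 4 groups, but with ATRA the range of TET3, 537 to 619 per kilobase, lay within that of TDG, 495 to 761. The values of UHRF1-206 and TET2-202 rest on at most 7 and 9 reads in a library, respectively. They describe the bases particular to these transcripts and are no measure of the expression of UHRF1 or TET2. DNMT1 and DNMT3A were left out of this order, since their leading models have too few bases of their own in GENCODE 44. TDG-202, TET3-202 and TET1-201 have changed version since the authors counted them, so the lengths behind this order may differ from theirs.

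Of the maintenance enzymes, DNMT1 could be followed through retained-intron models. DNMT1-222, the most abundant, had normalized read counts of 164, 179 and 146 in the untreated libraries, 119, 82.8 and 113 with DAC, 158, 151 and 205 with ATRA and 75.9, 75.8 and 69.2 with DAC + ATRA. All DAC libraries were below all untreated and ATRA libraries, and the DAC + ATRA libraries were the lowest, with no overlap with those of DAC alone. The log2 fold change against untreated was -0.64 with DAC (95% CI -0.98 to -0.31, adjusted p = 0.00221), 0.06 with ATRA (-0.27 to 0.40, adjusted p = 0.880) and -1.13 with DAC + ATRA (-1.47 to -0.79, adjusted p = 2.10e-06). Where no other tool or setting is named, adjusted p-values are from limma with Benjamini-Hochberg correction, for noncoding models over the 19373 transcripts of any biotype that passed the filter, for protein-coding ones over 9016 and for sums by symbol over 13528 symbols. With DAC the call was lost without untreated library 2 (-0.57, adjusted p = 0.0183) or DAC library 5 (-0.49, adjusted p = 0.0244).

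The reads of DNMT1-222 are placed by a short stretch of intron. GENCODE 44 leaves this model 93 bases that no other transcript of the matrix covers, although 3 models absent from the matrix lie over them, and a neighbouring model has since changed version, so that the stretch the authors counted may differ. The stretch is shown because 1615 reads of this model are the largest number on any DNMT1 transcript. It lies at chr19:10141935-10142027 of hg38 on the minus strand and is printed 5′ to 3′, with the first bases of the intron, its splice donor dinucleotide, in capitals.
DNMT1-222 own bases: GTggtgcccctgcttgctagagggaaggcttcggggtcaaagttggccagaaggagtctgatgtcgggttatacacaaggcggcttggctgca

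DNMT1-219 and DNMT1-206, which are also retained-intron models, were likewise lower in the libraries with DAC. DNMT1-219 had 56.1, 75.6 and 77.6 normalized reads in untreated cells, 44.3, 32.1 and 41.8 with DAC, 61.2, 60.1 and 85.7 with ATRA and 38.9, 31.6 and 28.4 with DAC + ATRA. DNMT1-206 had 50.5, 84.7 and 103 in untreated cells, 32.4, 22.4 and 14.9 with DAC, 39.1, 58.3 and 92.4 with ATRA and 20.8, 18.9 and 9.89 with DAC + ATRA. In both models, every library with DAC lay below every library without it, while the DAC and DAC + ATRA libraries overlapped. DNMT1-219 fell by 0.81 on the log2 scale with DAC (adjusted p = 0.00286) and by 1.06 with DAC + ATRA (adjusted p = 1.53e-04), and DNMT1-206 had log2 fold changes of -1.74 (adjusted p = 3.38e-04) and -2.20 (adjusted p = 1.87e-05). The DAC call of DNMT1-219 was lost without untreated library 2 (-0.74), untreated library 3 (-0.72) or DAC library 5 (-0.67). Of the other DNMT1 models tested, DNMT1-212 and DNMT1-211 did not pass the test against untreated cells in any group, with log2 fold changes between -0.51 and 0.03. GENCODE 44 gives both models 0 bases of their own, so what placed their 568 and 243 reads is not known. DNMT1-217, with at most 19 reads in a library, passed the filter through libraries without the combination and had 8.27, 9.10 and 10.2 normalized reads in untreated cells, 8.65, 13.6 and 6.97 with DAC, 8.45, 5.46 and 15.8 with ATRA and 0.904, 3.16 and 3.71 with DAC + ATRA. Its log2 fold change with DAC + ATRA was -1.60 (adjusted p = 0.00346), which is not taken as support for a fall, and the call was lost with DESeq2 (adjusted p = 0.0250) and without untreated library 2 (-1.61), untreated library 3 (-1.53) or DAC + ATRA library 10 (-1.20).

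Summed over its 29 transcripts, DNMT1 had 370, 466 and 430 normalized reads in untreated cells, 282, 199 and 247 with DAC, 344, 364 and 529 with ATRA and 203, 196 and 177 with DAC + ATRA. Only 0.773% of these reads lay on protein-coding transcripts, so the sum follows noncoding models and is no measure of the coding RNA of DNMT1. The libraries with DAC did not overlap those without it. In a fit of values summed by gene symbol, the log2 fold change of this sum was -0.81 with DAC (95% CI -1.12 to -0.49, adjusted p = 1.36e-04), -0.05 with ATRA (-0.37 to 0.26, adjusted p = 0.876) and -1.13 with DAC + ATRA (-1.45 to -0.81, adjusted p = 1.40e-06). UHRF1, the partner of DNMT1 at replication forks, had at most 21 reads in any group over its 4 transcripts with reads. All of them were below the filter, and UHRF1 was not tested.

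**Figure D2:**
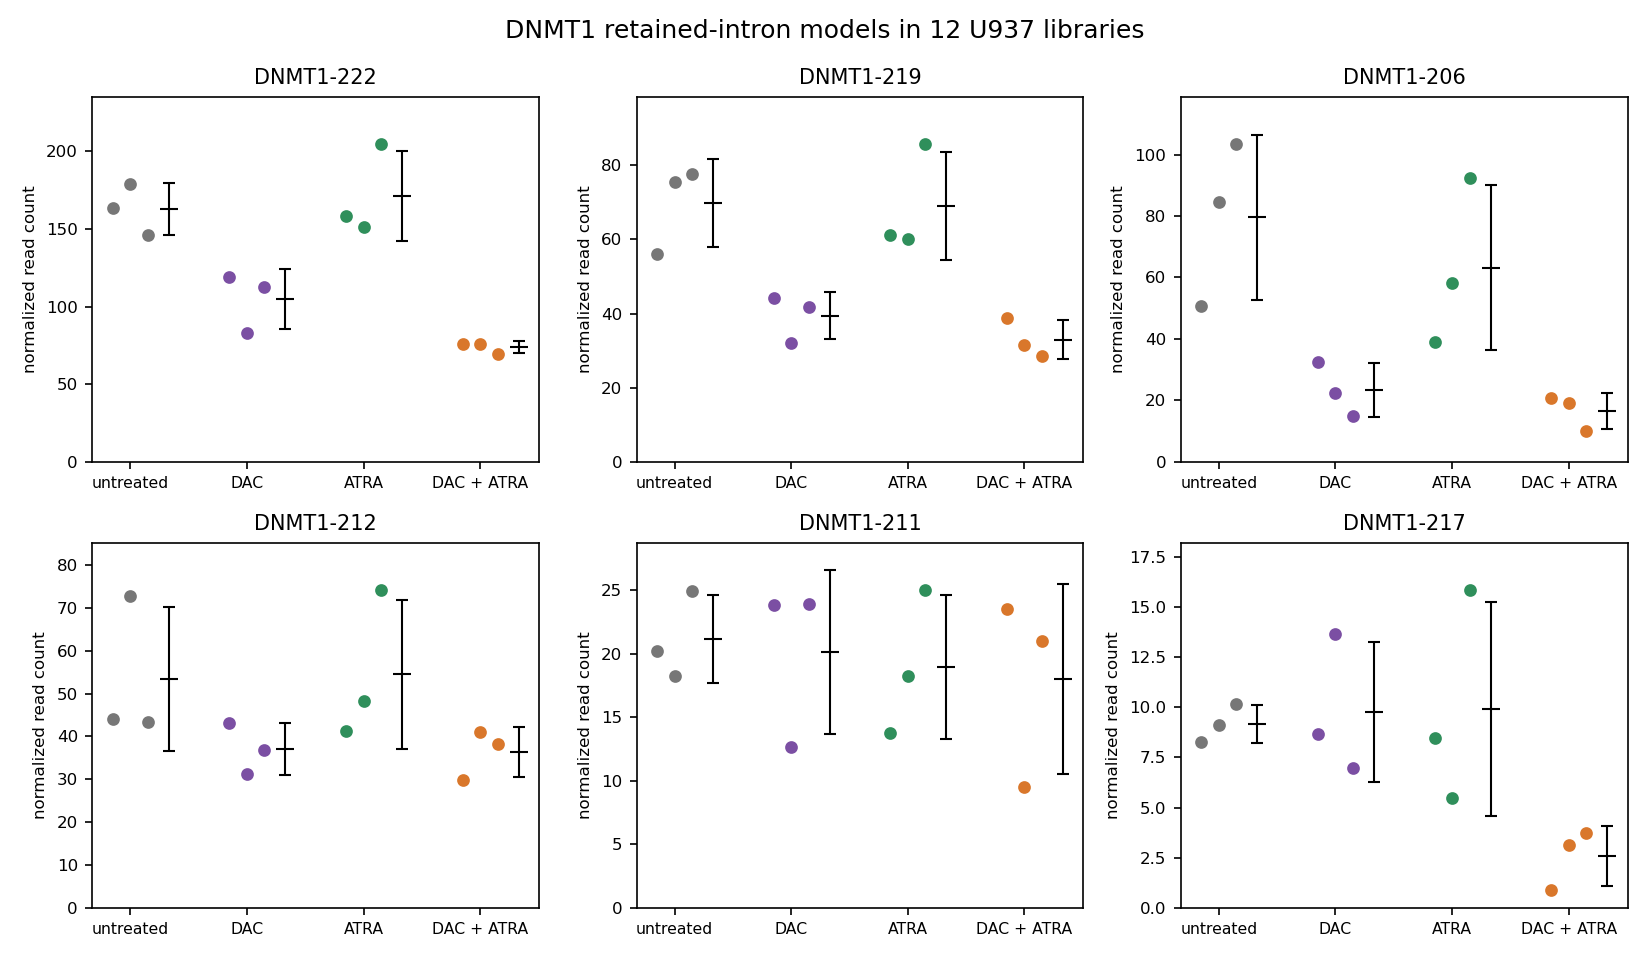
Normalized read counts of the 6 DNMT1 retained-intron models tested, 1 point per library, with the mean and SD of the 3 libraries of each group in black. In DNMT1-222, DNMT1-219 and DNMT1-206, the libraries with DAC lie below those without it.

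Among the de novo enzymes, DNMT3A received nearly all the counted reads. Its leading coding transcript, DNMT3A-201, had 1035, 1059 and 982 normalized reads in untreated cells, 1399, 1166 and 1273 with DAC, 2640, 2717 and 2633 with ATRA and 2832, 2737 and 2714 with DAC + ATRA. The libraries fell into a low set without ATRA and a high set with it, and no DAC library was as low as an untreated one. The log2 fold change against untreated was 1.38 with ATRA (95% CI 1.19 to 1.57, adjusted p = 3.44e-10), a 2.60-fold rise, and 1.43 with DAC + ATRA (1.24 to 1.62, adjusted p = 3.04e-11). With DAC alone it was 0.32 (0.13 to 0.51, adjusted p = 0.00655), which is 0.09 above the median of all protein-coding transcripts tested in that comparison. The DAC call was lost with every other scaling tried, with values of 0.12 with TMM, 0.15 with DESeq2, 0.19 with library totals and 0.16 with size factors from protein-coding transcripts. It was also lost with no filter on low values (adjusted p = 0.0162) and without untreated library 1 (0.32), 2 (0.34) or 3 (0.29), DAC library 4 (0.25) or 6 (0.32), or DAC + ATRA library 11 (adjusted p = 0.0101) or 12 (adjusted p = 0.0106).

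A short DNMT3A transcript of 4 exons, DNMT3A-206, shares its start with DNMT3A-201 and ends within the gene, with 989 bases of its own. It had 12.9, 15.5 and 13.9 normalized reads in untreated cells, 59.5, 66.2 and 63.7 with DAC, 56.0, 44.6 and 39.9 with ATRA and 94.0, 100 and 87.7 with DAC + ATRA. The 4 groups did not overlap, and their order differed from that of DNMT3A-201, with DAC above ATRA. The log2 fold change was 2.09 with DAC (95% CI 1.70 to 2.49, adjusted p = 1.00e-08), 1.66 with ATRA (1.26 to 2.05, adjusted p = 1.52e-06) and 2.66 with DAC + ATRA (2.26 to 3.05, adjusted p = 1.91e-10), the last a 6.31-fold rise. Noncoding models of DNMT3A were low. DNMT3A-210, a retained-intron model, averaged 3.97 normalized reads in untreated cells, 8.52 with DAC, 16.8 with ATRA and 18.6 in DAC + ATRA. DNMT3A-204, a model predicted to undergo nonsense-mediated decay, averaged 3.38, 4.02, 9.46 and 12.7 in the same order. No untreated library of either reached 10, and both passed the filter through libraries in which they are high, so their tests with ATRA and with DAC + ATRA are not taken as support for a rise.

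The other de novo genes gave few reads. DNMT3B-202 had 6 reads in untreated cells, 16 with DAC, 7 with ATRA and 13 in DAC + ATRA, at most 9 in a library. DNMT3L, a cofactor of de novo methylation in germ cells, had 0 reads on its 4 transcripts, against a floor of 3 reads per library. Neither gene was tested.

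**Figure D3:**
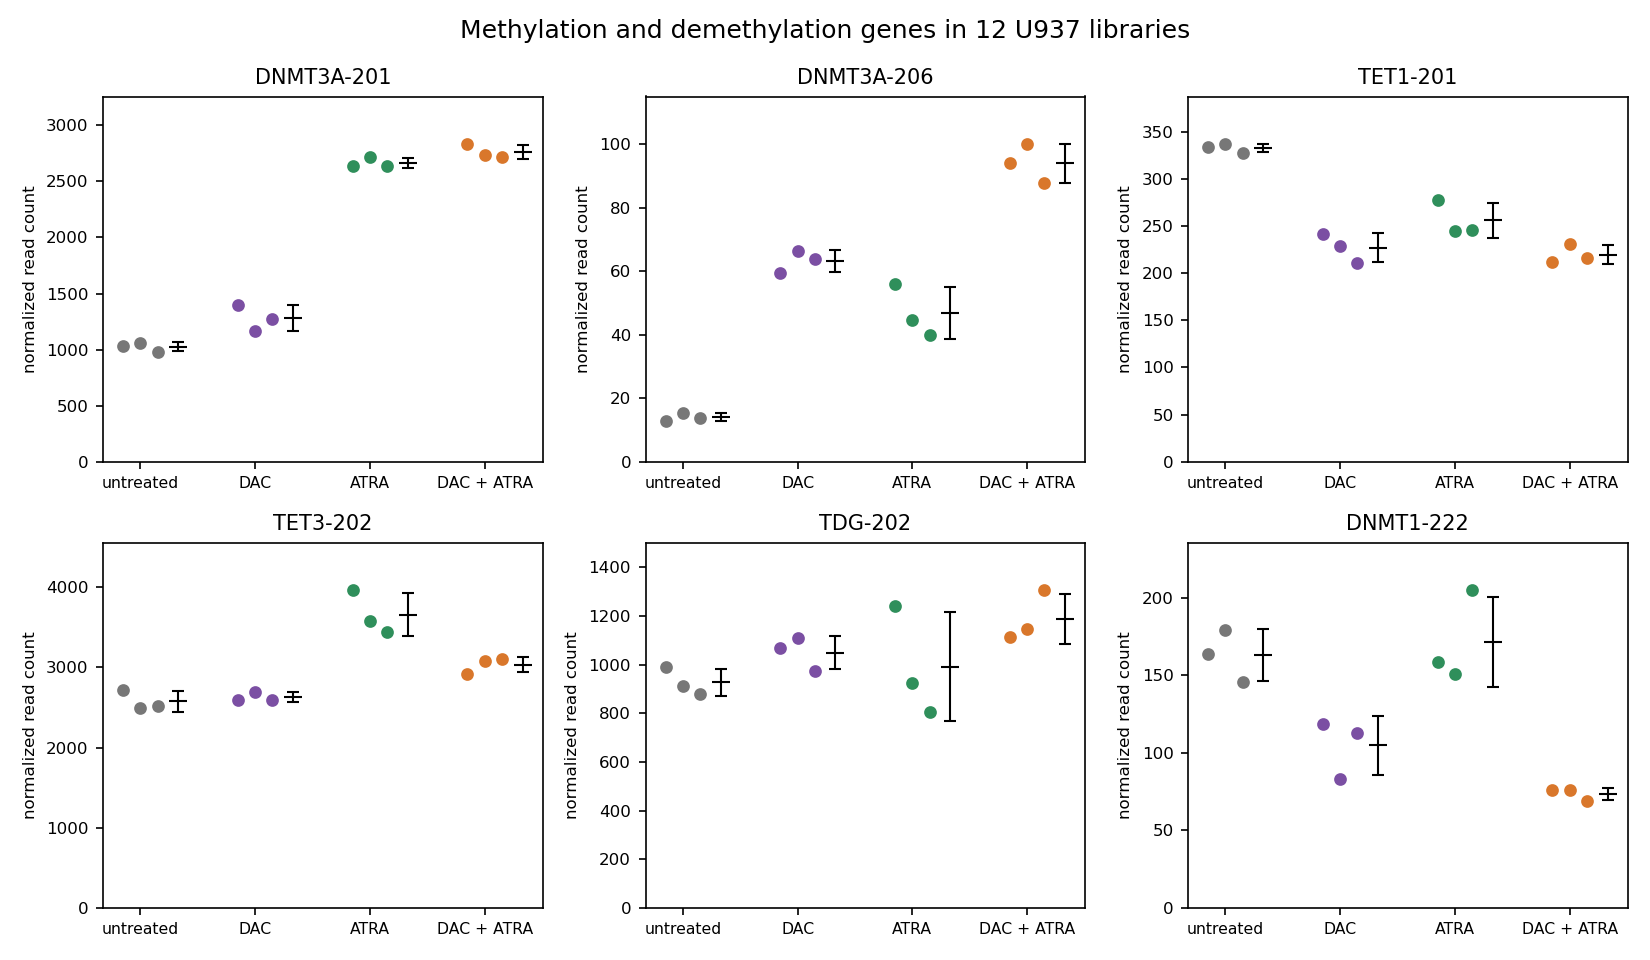
Normalized read counts of the 5 protein-coding transcripts tested and of DNMT1-222, 1 point per library, with the mean and SD of the 3 libraries of each group in black. DNMT3A-201 is high in both groups with ATRA, the libraries of DNMT3A-206 do not overlap between groups, TET1-201 is highest in untreated cells and TET3-202 is highest with ATRA alone.

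The TET dioxygenases moved in different directions. TET1-201, the single TET1 transcript of the matrix, had 334, 337 and 328 normalized reads in untreated cells, 241, 229 and 211 with DAC, 278, 245 and 246 with ATRA and 212, 231 and 216 with DAC + ATRA. Every treated library was below every untreated one, and the libraries of DAC and DAC + ATRA overlapped. With the hours of the labels, treatment and time cannot be told apart here. The log2 fold change was -0.55 with DAC (95% CI -0.79 to -0.31, adjusted p = 3.89e-04) and -0.60 with DAC + ATRA (-0.84 to -0.36, adjusted p = 1.34e-04). With ATRA it was -0.38 (-0.62 to -0.14, adjusted p = 0.0278) and did not pass. It passed with TMM (-0.41, adjusted p = 0.00664), DESeq2 (-0.40), library totals (-0.45) and size factors from protein-coding transcripts (-0.40).

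TET3-202, the most abundant transcript of the 10 genes by reads, had 2722, 2490 and 2516 normalized reads in untreated cells, 2599, 2699 and 2593 with DAC, 3962, 3578 and 3437 with ATRA and 2925, 3078 and 3106 with DAC + ATRA. The ATRA libraries were the highest without overlap, the DAC + ATRA libraries lay between them and the rest, and the untreated and DAC libraries overlapped. The log2 fold change was 0.50 with ATRA (95% CI 0.32 to 0.69, adjusted p = 2.56e-04) and 0.24 with DAC + ATRA (0.06 to 0.42, adjusted p = 0.0249), the latter past the threshold without ATRA library 9 (adjusted p = 0.00682) and with only the groups compared in the fit (adjusted p = 0.00502). With DAC it was 0.03 (-0.15 to 0.21), and -0.17 with TMM. TET2-202, the transcript with 78 of the 79 reads of TET2, averaged 7.03 ± 2.11 normalized reads in untreated cells (SD, n = 3), 7.85 ± 2.61 with DAC and 6.53 ± 2.54 with ATRA, and ran from 1.81 to 5.26 with DAC + ATRA. The groups overlapped, and TET2 was below the filter.

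Of the excision genes, TDG was tested on TDG-202, with 990, 911 and 878 normalized reads in untreated cells, 1067, 1109 and 973 with DAC, 1240, 925 and 806 with ATRA and 1115, 1145 and 1305 with DAC + ATRA. The ATRA libraries overlapped those of every other group, and all DAC + ATRA libraries were above all untreated ones. The log2 fold change of TDG was 0.18 with DAC (95% CI -0.09 to 0.45), 0.07 with ATRA (-0.19 to 0.34) and 0.36 with DAC + ATRA (0.09 to 0.62, adjusted p = 0.0219). The value with DAC + ATRA did not pass, but did so without ATRA library 7 (adjusted p = 0.00513) or 9 (adjusted p = 0.00560) and with only the groups compared in the fit (adjusted p = 0.00110). The DAC value changed sign with TMM (-0.02), and the ATRA value did so without ATRA library 7 (-0.10). TDG, TET1 and DNMT3A each have 1 annotated pseudogene, and reads of a pseudogene cannot be told apart from theirs where the sequences are alike. GADD45A gave at most 6 reads on a transcript in any library and was not tested.

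The promoters of the coding genes that changed are shown because methylation acts on CpGs and ATRA acts through receptors that bind DNA. A RefSeq promoter entry (GRCh38.p14) exists for 8 of the 10 genes. The 250 bases before the start are printed 5′ to 3′ on the gene's strand, with each CpG in capitals, for DNMT3A at chr2:25342591-25342840 (minus strand), TET3 at chr2:73984660-73984909 (plus strand) and TET1 at chr10:68560087-68560336 (plus strand).
DNMT3A promoter: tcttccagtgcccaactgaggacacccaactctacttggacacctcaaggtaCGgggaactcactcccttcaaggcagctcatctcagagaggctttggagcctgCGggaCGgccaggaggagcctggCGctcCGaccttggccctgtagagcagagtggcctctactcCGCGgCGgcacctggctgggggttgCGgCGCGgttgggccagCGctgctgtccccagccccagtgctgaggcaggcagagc
TET3 promoter: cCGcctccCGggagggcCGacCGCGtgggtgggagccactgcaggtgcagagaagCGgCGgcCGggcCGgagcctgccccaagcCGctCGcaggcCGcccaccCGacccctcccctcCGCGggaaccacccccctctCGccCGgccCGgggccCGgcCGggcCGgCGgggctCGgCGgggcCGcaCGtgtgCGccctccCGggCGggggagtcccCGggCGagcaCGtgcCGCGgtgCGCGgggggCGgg
TET1 promoter: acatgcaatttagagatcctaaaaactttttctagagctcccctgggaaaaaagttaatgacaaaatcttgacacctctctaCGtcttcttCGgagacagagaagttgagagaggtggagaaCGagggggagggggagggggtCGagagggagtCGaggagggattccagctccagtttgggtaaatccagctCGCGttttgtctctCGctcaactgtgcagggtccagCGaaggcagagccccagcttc

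The TET3 promoter held 37 CpGs, more than 96.0% of the 35116 promoters in the table, and its GC content was 84.0%. The DNMT3A promoter held 12 CpGs, with fewer in 51.5% of promoters, and the TET1 promoter 9, with fewer in 45.9%. The median promoter held 11 CpGs, with quartiles of 3 and 23. The retinoid receptor half-site AGGTCA, present in 12.1% of promoters, was searched on both strands and found 0 times in the 3 sequences. The E2F sites TTTCGCGC and TTTGGCGC, present in 0.439% and 0.550% of promoters, were also found 0 times. Sites outside these 250 bases were not searched.

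With DAC, the inhibitor of the methyltransferases themselves, DNMT1 models and TET1 were lower and the short DNMT3A transcript higher than in untreated cells. Against untreated cells, 3 of the 5 protein-coding transcripts passed the test, DNMT3A-201 and DNMT3A-206 upwards and TET1-201 downwards. Of all 9016 protein-coding transcripts tested, 39.3% passed, so such a share is not particular to these genes. Over any biotype, 6 of the 13 transcripts passed, 2 upwards and 4 downwards, against 33.5% of all 19373. The median log2 fold change of all protein-coding transcripts was 0.22 with DAC and 0.20 with DAC + ATRA at the authors' size factors, and 0.02 and 0.06 with TMM. Relative to the median at the authors' size factors, TET1-201 stood at -0.77 with DAC, DNMT3A-206 at 1.87 and TET3-202 at -0.19. Without untreated library 2, 3 of the 13 transcripts passed.

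With ATRA, the receptor ligand, DNMT3A and TET3 were higher than in untreated cells. Against untreated cells 3 of the 5 protein-coding transcripts passed, DNMT3A-201, DNMT3A-206 and TET3-202, all upwards, where 9.14% of all protein-coding transcripts tested passed and their median was 0.00. The 6 DNMT1 models had log2 fold changes between -0.35 and 0.06 with ATRA. None of them passed in limma, where 6.97% of transcripts of any biotype did. None had an unadjusted p under 0.05 either, where 4356 of all 19373 did.

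With DAC + ATRA, DNMT3A was higher and DNMT1 models and TET1 were lower than in untreated cells. Against untreated cells 3 of the 5 protein-coding transcripts passed, DNMT3A-201 and DNMT3A-206 upwards and TET1-201 downwards, where 46.8% of all protein-coding transcripts did. Of the noncoding models with libraries above the filter in both groups compared, DNMT1-222, DNMT1-219 and DNMT1-206 passed downwards. DNMT1-212 (adjusted p = 0.0775) and DNMT1-211 (adjusted p = 0.460) did not pass. Over all transcripts of any biotype, 41.6% passed. Relative to the median of all tested, DNMT3A-201 stood at 1.23, TET1-201 at -0.80 and TET3-202 at 0.04.

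**Figure D4:**
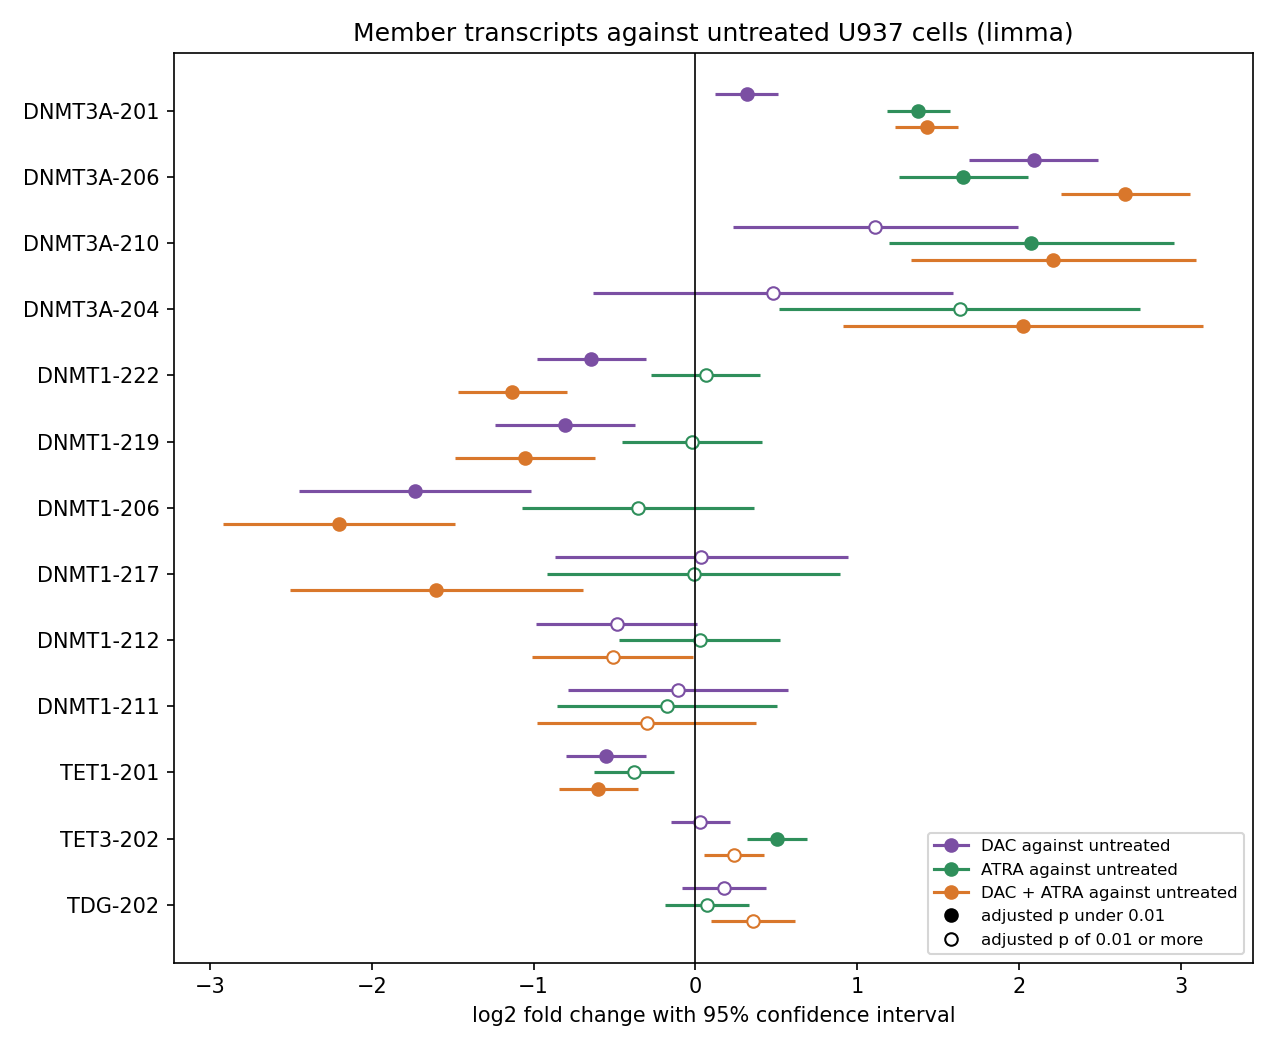
Log2 fold change against untreated cells of the 13 transcripts tested, from the fit over transcripts of any biotype, with the 95% confidence interval as a line and filled points for an adjusted p under 0.01. DNMT3A-201 is near 1.4 in both groups with ATRA, and DNMT1-222, DNMT1-219 and DNMT1-206 are below 0 in both groups with DAC.

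The 3 comparisons above share the untreated libraries, so the added effect of each agent was tested directly. Added to ATRA, DAC lowered retained-intron models of DNMT1 and raised DNMT3A-206. DNMT1-222 had a log2 fold change of -1.20 in DAC + ATRA against ATRA (95% CI -1.53 to -0.86, adjusted p = 1.34e-06), DNMT1-219 of -1.04 (adjusted p = 2.68e-04), DNMT1-206 of -1.85 (adjusted p = 1.94e-04) and DNMT3A-206 of 1.00 (0.60 to 1.40, adjusted p = 1.91e-04). DNMT1-217, with its limit from the filter given above, was at -1.59 (adjusted p = 0.00498), a call lost with DESeq2 (-2.02), with a pseudocount of 0.1 (-1.97), with only the groups compared in the fit (adjusted p = 0.0143) and without ATRA library 7 (-1.64), ATRA library 9 (-1.23) or DAC + ATRA library 10 (-1.19). DNMT1-212 (-0.54, adjusted p = 0.0790) and DNMT1-211 (-0.13, adjusted p = 0.792) did not pass. In all, 1 of the 5 protein-coding transcripts passed, where 34.8% of all did. Of any biotype, 5 of the 13 passed, DNMT1-217 included, where 29.4% of all did. DNMT3A-201 differed by 0.05 (-0.14 to 0.24), and by -0.06 with TMM, and TET1-201 by -0.22 (-0.46 to 0.02), which passed with size factors from protein-coding transcripts (-0.34, adjusted p = 0.00995). TET3-202 was lower in DAC + ATRA by its values, at -0.27 (-0.45 to -0.09, adjusted p = 0.0164). It passed with TMM (-0.38, adjusted p = 3.75e-05), DESeq2 (-0.39), library totals (-0.35), size factors from protein-coding transcripts (-0.39) and without ATRA library 9 (-0.31, adjusted p = 0.00311). TDG-202 was at 0.28 (0.02 to 0.55, adjusted p = 0.0791) and passed without ATRA library 7 (0.46, adjusted p = 0.00264).

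Added to DAC, ATRA raised DNMT3A-201. Its log2 fold change in DAC + ATRA against DAC was 1.11 (95% CI 0.92 to 1.30, adjusted p = 1.54e-08), a 2.16-fold rise. It was the 1 of the 5 protein-coding transcripts that passed, where 11.3% of all did, and the 1 of the 13 of any biotype, where 8.77% did. DNMT3A-206 was at 0.56 (0.17 to 0.96, adjusted p = 0.0444) and passed with TMM (adjusted p = 0.00841). TET3-202 was at 0.21 (0.02 to 0.39, adjusted p = 0.115) and passed with TMM (0.27) and DESeq2 (0.24). DNMT1-222 was at -0.49 (-0.82 to -0.15, adjusted p = 0.0462), and DNMT1-217 at -1.64 (adjusted p = 0.0110), which passed without ATRA library 8 (adjusted p = 0.00916) or 9 (adjusted p = 0.00763). TET1-201 was at -0.05 (-0.28 to 0.19), and 0.01 with TMM.

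The interaction asks whether the log2 fold changes of DAC and ATRA add up in DAC + ATRA, and it is 0 where they do. In limma 0 of the 13 transcripts passed, where 2.46% of protein-coding transcripts and 1.51% of those of any biotype did. At an unadjusted p under 0.05 there were 4 of the 13, where 2786 of all 19373 transcripts of any biotype were. Of the 13, edgeR with TMM, edgeR with the authors' size factors and DESeq2 each called 0. DNMT3A-206 came nearest, with an interaction of -1.09 (95% CI -1.65 to -0.53, adjusted p = 0.0192), so its rise with both agents was smaller than the sum of the single rises by that estimate. It passed without ATRA library 9 (-1.20, adjusted p = 0.00765). The interaction was -0.26 for DNMT3A-201 (-0.53 to 0.00, adjusted p = 0.303), 0.33 for TET1-201 (adjusted p = 0.300), -0.30 for TET3-202 (-0.56 to -0.04, adjusted p = 0.206), 0.10 for TDG-202 (-0.27 to 0.48) and -0.55 for DNMT1-222 (-1.03 to -0.08, adjusted p = 0.246). A difference between the effect of DAC in untreated and in ATRA-treated cells is thus not shown for any of them.

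Genes of like pattern were sought for DNMT3A, TET1 and TET3, whose leading transcripts passed against untreated cells. Over the 12 libraries, the highest Pearson r with DNMT3A-201 were those of RASD2 (0.992), SLC2A5 (0.991) and CDH23 (0.986). RASD2 averaged 141 normalized reads in untreated cells, 550 with DAC, 15843 with ATRA and 12856 in DAC + ATRA, a far wider range than DNMT3A. For TET1 they were RABL3 (0.975), NUDT5 (0.975) and LRP11 (0.974), and for TET3 NRP2 (0.952), GM2A (0.952) and MAS1 (0.952). These values describe libraries that share groups and scaling, and were not tested.

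Among proteins that work with the methyltransferases, HELLS and CDCA7L fell with DAC. Of 13 cofactors, 6 were tested, and 2 rose and 2 fell both with DAC and with DAC + ATRA, where 39.3% and 46.8% of all protein-coding transcripts passed. The median log2 fold change was 0.39 and 0.04, against 0.22 and 0.20 over all. Some genes of the lists passed the filter only through groups where they are high, so the counts and medians of the lists describe the genes tested and are no support for a shift. HELLS, a chromatin remodeler needed for maintenance methylation, had 851, 851 and 831 normalized reads in untreated cells, 488, 420 and 419 with DAC, 788, 807 and 789 with ATRA and 437, 345 and 414 with DAC + ATRA. The libraries with and without DAC did not overlap, and the log2 fold change of HELLS was -0.94 with DAC (SE 0.11, adjusted p = 3.37e-07), -0.09 with ATRA and -1.09 with DAC + ATRA (SE 0.11, adjusted p = 2.90e-08). CDCA7L, a relative of the HELLS partner CDCA7, fell by 1.40 on the log2 scale with DAC (adjusted p = 0.00409). With DAC + ATRA it was at -1.89, but no library of that group reached 10, so the value is not taken as support for a fall. Its DAC call was lost without untreated library 2 (-1.42) or 3 (-1.11) or DAC library 6 (-1.09). UHRF2, the relative of UHRF1, did not pass on its leading transcript (0.78 with DAC, adjusted p = 0.106), and its value summed by symbol had the opposite sign (-0.44, adjusted p = 0.00211). PCNA, the replication clamp, had 38 reads on its leading transcript and was not tested.

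DPPA3, a germline protein known to bind UHRF1 and displace it from chromatin, had 0 reads in the untreated and ATRA libraries. It had 134, 199 and 161 normalized reads with DAC and 127, 185 and 166 with DAC + ATRA, so it was read in each library with DAC and in no library without it. Against a floor of 3 reads per library, the mean with DAC was at least 59.8-fold higher than in untreated cells and that with DAC + ATRA at least 57.9-fold higher. DPPA3 passed the filter only through the libraries with DAC, so its tests against groups without DAC are not taken as support, and DAC + ATRA against DAC gave -0.05 (adjusted p = 0.944). DPPA3 has 11 annotated pseudogenes, whose reads cannot be told apart from its own where the sequences are alike. The medians of the cofactor list are the same with DPPA3 at its bound, 0.39 and 0.04.

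Of 10 methyl-CpG binding proteins, which read the mark, 9 were tested. With DAC + ATRA 2 rose and 1 fell, with a median of 0.28, and with DAC the counts were the same, with a median of 0.31. The shares over all protein-coding transcripts, 46.8% and 39.3%, were higher. ZBTB38, a zinc finger protein that binds methylated DNA, had 13.8, 12.7 and 11.1 normalized reads in untreated cells, 45.4, 52.6 and 43.8 with DAC, 16.9, 16.4 and 9.16 with ATRA and 36.2, 52.6 and 48.2 with DAC + ATRA. Libraries with and without DAC did not overlap, and ZBTB38 rose by 1.83 on the log2 scale with DAC (adjusted p = 4.88e-06) and by 1.77 with DAC + ATRA (adjusted p = 5.96e-06). MBD4, a glycosylase that repairs mismatches at CpGs, stood at 165, 157 and 182 in untreated cells, 123, 118 and 105 with DAC, 169, 163 and 176 with ATRA and 137, 123 and 103 with DAC + ATRA. The MBD4 fold changes were -0.54 with DAC (adjusted p = 0.00307) and -0.48 with DAC + ATRA (adjusted p = 0.00633). The first was lost with no filter (adjusted p = 0.0158) and without untreated library 3 (-0.48) or DAC library 6 (-0.47), and the second with no filter (adjusted p = 0.0323) and without untreated library 1 (-0.49), 2 (-0.53) or 3 (-0.42) or DAC + ATRA library 11 (-0.50) or 12 (-0.37).

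Of 19 base excision and repair partners, MBD4 included, 7 were tested, and with DAC + ATRA 1 rose and 5 fell, with a median of -0.48 against 0.20 over all, where 46.8% of all protein-coding transcripts passed. With DAC 2 fell and the other 5 did not pass, with a median of -0.24, where 39.3% of all did. SMUG1, a uracil glycosylase, was the one that rose (0.98, adjusted p = 0.00607). Its call was lost with TMM (0.77), DESeq2 (0.77), library totals (0.84) and size factors from protein-coding transcripts (0.85), and without untreated library 2 (0.81) or 3 (0.77) or DAC + ATRA library 10 (1.06), 11 (0.95) or 12 (0.93). OGG1, which removes oxidized guanine, fell most on its leading transcript (-1.18, adjusted p = 7.46e-06), but its value summed by symbol was 0.15 (adjusted p = 0.295). GADD45B, a relative of GADD45A, had 0 reads on its leading transcript and was not tested.

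TET enzymes use 2-oxoglutarate, and methyltransferases use S-adenosylmethionine. Of 12 genes for TET cofactors and 2-oxoglutarate supply, 9 were tested, and with DAC + ATRA 2 fell and the other 7 did not pass, with a median of -0.40, while with DAC 1 rose and 3 fell, with a median of -0.29. Over all protein-coding transcripts 46.8% and 39.3% passed. OGDH, which consumes 2-oxoglutarate, was lowest at -1.04 (adjusted p = 0.0132) and IDH3G highest at 0.36 (adjusted p = 0.484). No DAC + ATRA library of OGDH reached 10 normalized reads, so its value is not taken as support for a fall. IDH2, the mitochondrial enzyme that makes 2-oxoglutarate, had a log2 fold change of 0.47 with ATRA (adjusted p = 0.00554) and of -0.50 in DAC + ATRA against ATRA (adjusted p = 9.35e-04). The ATRA call of IDH2 was lost with only the groups compared in the fit (adjusted p = 0.0315) and without untreated library 1 (0.42) or 3 (0.44) or ATRA library 7 (0.40) or 8 (0.42). IDH1 had 13 reads on its leading transcript and was not tested.

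Of 14 genes of methyl donor supply, 7 were tested. MAT2A, which makes S-adenosylmethionine, had 11561, 10084 and 10180 normalized reads in untreated cells, 8167, 8078 and 7612 with DAC, 10260, 8794 and 8872 with ATRA and 7695, 8437 and 7849 with DAC + ATRA. Libraries with DAC lay below those without it, and MAT2A fell by 0.41 on the log2 scale with DAC (adjusted p = 5.96e-04) and by 0.41 with DAC + ATRA (adjusted p = 5.81e-04). MAT2B, the regulatory partner of MAT2A, was at -1.72 with DAC + ATRA (adjusted p = 0.0217), a value not taken as support for a fall, since no library of that group reached 10 normalized reads and library 12 had 0 reads. AHCY had 0 reads on its leading transcript.

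DNMT1 and UHRF1 are expressed mainly in dividing cells, so genes of S phase and mitosis were set beside them. Of 22, 10 were tested. With DAC 4 fell and the other 6 did not pass, with a median of -0.19, and with DAC + ATRA 5 fell and the other 5 did not pass, with a median of -0.51 against 0.20 over all. Over all protein-coding transcripts, 39.3% with DAC and 46.8% with DAC + ATRA passed in either direction. MCM3, a helicase subunit, was at -1.60 with DAC (adjusted p = 3.53e-04), where its libraries had 11.9, 5.85 and 5.98 normalized reads. With DAC + ATRA it was at -1.77, and no library of that group reached 10. MCM3 passed the filter mainly through groups where it is higher, so neither value is taken as support for a fall. Summed by symbol, MCM3 was at -0.75 with DAC + ATRA (adjusted p = 0.0115). MKI67, the proliferation marker, was at -0.27 with DAC + ATRA (adjusted p = 0.584), where its libraries had 4.52, 4.21 and 9.89 normalized reads. With no library of that group at 10, this value does not show that MKI67 was unchanged. CCNB1, the mitotic cyclin, was at 0.28 with DAC + ATRA (adjusted p = 0.296). The part of cell division in the lower DNMT1 values was not tested.

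Because GADD45A itself could not be tested, stress genes often induced with it were followed. Of 12, 8 were tested, and 7 rose with DAC + ATRA, with a median of 1.01 against 0.20 over all, while 4 rose with DAC (median 0.55) and 3 rose and 1 fell with ATRA (median 0.47). Over all protein-coding transcripts 46.8% passed with DAC + ATRA, 39.3% with DAC and 9.14% with ATRA. GDF15, a secreted stress cytokine, had 5.51, 6.37 and 2.77 normalized reads in untreated cells, 31.3, 77.0 and 59.8 with DAC, 13.7, 19.1 and 17.5 with ATRA and 363, 496 and 413 with DAC + ATRA. The 4 groups did not overlap. No untreated library of GDF15 reached 10, so it passed the filter through treated libraries, and its log2 fold changes of 3.24, 1.64 and 6.22 with DAC, ATRA and DAC + ATRA are not taken as support for a rise. TRIB3, a pseudokinase of the stress response, was the one that fell with ATRA (-0.47, adjusted p = 0.00506). Its call was lost with only the groups compared in the fit (adjusted p = 0.0318) and without untreated library 1 (-0.45) or 2 (-0.44) or ATRA library 9 (-0.33). With DAC + ATRA it was at -0.26 (adjusted p = 0.0509), and it passed with TMM (-0.40), DESeq2 (-0.40), library totals (-0.41), size factors from protein-coding transcripts (-0.39), only the groups compared in the fit (adjusted p = 0.00620) and without ATRA library 9 (adjusted p = 0.00830). CDKN1A had 40 reads on its leading transcript and was not tested.

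**Figure D5:**
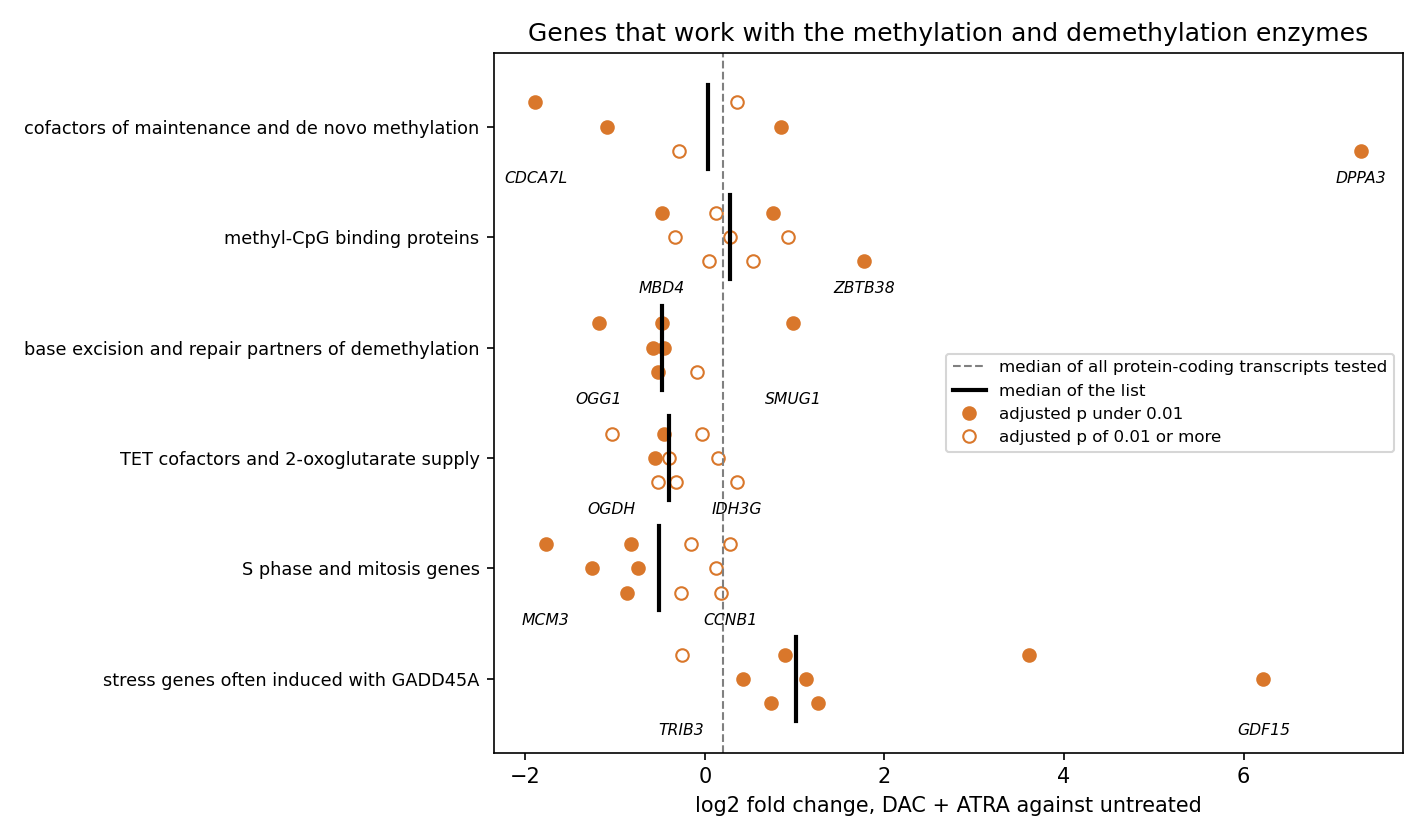
Each tested gene of 6 lists by its log2 fold change between DAC + ATRA and untreated cells, with filled points for an adjusted p under 0.01, a black bar at the median of each list and a dashed line at 0.20, the median of all protein-coding transcripts tested. The highest and lowest gene of each list are named, and the fitted value of DPPA3 rests on 0 reads in untreated cells.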

How the data were processed

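RNA-seq values of 12 U937 libraries were taken as deposited. They are a signal per transcript that the authors made by dividing read counts by 1 size factor for each library, after alignment to hg38 with STAR, counting with htseq-count and normalization with DESeq2, and versions are not stated. Each library's values were whole multiples of 1 step within 0.01 of a read (100%), which gave the reads. Transcripts were matched to GENCODE 44, and 3 of the 91 taken were not matched. Where no tool is named, fold changes and adjusted p-values come from limma 3.58.1 (lmFit, eBayes with trend and robust) under R 4.3.3. Its input was the log2 of each value after adding 1, the 12 libraries were fitted together, p-values were adjusted by Benjamini-Hochberg over the transcripts tested, and the threshold was 0.01. Testing required 10 normalized reads in 3 or more libraries. A gene is represented by its most abundant protein-coding transcript.

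The genes and lists were chosen with earlier results of these data known. From the lists, genes at the ends of the range with DAC + ATRA are named, plus PCNA, MKI67, UHRF2, HELLS, MBD4, GADD45B, IDH1, IDH2, MAT2A, AHCY and CDKN1A, and, for each of the 10 genes whose leading transcript was called, the 3 other genes with a mean of at least 50 and the highest Pearson r. Markers covered myelomonocytic, B, T, erythroid, epithelial and fibroblast cells. Alternatives were edgeR 4.0.16 (TMM or the deposited factors) and DESeq2 1.42.0 on the reads, library totals, size factors from protein-coding transcripts, other filters, a pseudocount of 0.1, only the groups compared, all biotypes, sums by symbol, an adjusted p under 0.05 and leaving out each library. The fits were tested on simulated data. Tables used Python 3.11.15, numpy 2.4.6, pandas 2.3.3 and scipy 1.17.1.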

Additional observations from a re-analysis of the deposited data

How the results depend on the processing

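For the transcripts of the 10 genes, 753 of 787 values under the alternatives and 905 of 936 without 1 library stayed on their side of the threshold. Of the others, 11 and 22 lost a call and 23 and 9 gained one, and no call changed direction. For the other named genes, 1239 of 1281 and 1323 of 1368 did so, 18 and 39 lost a call, 20 and 6 gained one, and 4 changed direction when summed by symbol, UHRF2 with DAC (-0.44) and OGG1 with DAC (0.0555), with DAC + ATRA (0.15) and in DAC + ATRA against ATRA (0.27). The cause was not tested.

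Genes called on their leading transcript changed in number with the scaling and with other settings. With DAC, 1 was called with TMM, DESeq2, library totals, size factors from protein-coding transcripts and no filter, in place of 2. In DAC + ATRA against ATRA, 1 was called with TMM, DESeq2, library totals and an adjusted p under 0.05, in place of 0. With size factors from protein-coding transcripts, 2 were called. Summed by symbol, 1 gene was called in that comparison, DNMT1 (-1.08, adjusted p = 4.05e-06), whose leading transcript was not tested. In DAC + ATRA against DAC, 2 were called with TMM and DESeq2, in place of 1. With DAC + ATRA, 4 were called with only the groups compared and at an adjusted p under 0.05, in place of 2. With at least 10 in every library, 5 of the transcripts of any biotype were called with DAC + ATRA, in place of 9, and 3 against ATRA, in place of 5, since fewer were tested. At an adjusted p under 0.05, 3 were called against DAC and 1 for the interaction.

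Among all protein-coding transcripts, at least 10 in every library left fewer tested and gave 2283 calls with DAC, 2749 with DAC + ATRA, 1939 against ATRA and 134 for the interaction. Testing all biotypes gave 6485 with DAC, 1351 with ATRA, 8065 with DAC + ATRA, 5688 against ATRA and 1699 against DAC, and sums by symbol gave 5493, 1300, 6559, 5015 and 1659. An adjusted p under 0.05 gave 1317 with ATRA, 1618 against DAC and 456 for the interaction, and DESeq2 gave 341 for the interaction. Where no reason is given, the cause was not tested.

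Without 1 library at a time, the genes called on their leading transcript numbered 1 to 2 with DAC, 2 to 4 with DAC + ATRA and 0 to 1 against ATRA. Transcripts of any biotype numbered 3 to 6 with DAC, 1 to 2 against DAC and 0 to 1 for the interaction. Over all protein-coding transcripts, interaction calls numbered 148 to 483, the highest without ATRA library 9. A group left with 2 libraries shares the spread estimated over all groups.

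No paired analysis was possible because the columns carry no replicate number, so the replicate block was not run, and only the groups compared gives no interaction. The use of all alternatives on the noncoding transcripts was chosen after seeing the data. UHRF1, DNMT3B, TET2 and GADD45A had at most 79 reads each and DNMT3L 0, and they were not tested.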
